A study of Mus musculus with 48 samples.

Results

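Among 48 sequenced libraries of mouse cerebral cortex, 3 carried far more transthyretin RNA than the rest. They were chosen by their Ttr value alone: a library belongs to the set when Ttr exceeds 50 CPM, the usual scale on which counts are brought to a common library total, here the plain sum of each library. The 45 other libraries are at or below that value. The 3 libraries come from a female labelled Msh3-/- (replicate F4), a male labelled WT (replicate M3) and a second female labelled Msh3-/- (replicate F3). Because Ttr counts chose the libraries, every difference between the 3 and the 45 is given below as a description with no test.

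The choroid plexus is a fold of vascular tissue in the brain ventricles whose epithelium secretes cerebrospinal fluid. Its epithelial cells make transthyretin, the carrier of thyroxine and of retinol-binding protein, in very large amounts, and they move water, ions and vitamins from blood to fluid. Cortical neurons and glia are not known as a major source of transthyretin, so Ttr is widely used as a sign of choroid plexus in dissected brain tissue.

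All animals were 6 months old, of both sexes and listed on a C57BL/6 background. Without Q140 there were 7 WT, 9 Msh3+/- and 8 Msh3-/- mice. With Q140 there were 8 mice with intact Msh3 (Q140), 8 labelled Q140 x Msh3+/- and 8 labelled Q140 x Msh3-/-, and each mouse gave 1 library. Q140 is a knock-in of the Huntington's disease gene Htt with an expanded CAG repeat, carried in heterozygous form per the labels, and Msh3 is a gene of DNA mismatch repair. The labels do not describe how the Msh3 allele was made.

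Library totals ran from 35.9 to 64.5 M counts, with 43.6 M in Msh3-/- F4, 64.5 M in WT M3 and 47.6 M in Msh3-/- F3. Levels below are CPM with library sizes scaled by the trimmed mean of M-values (TMM). Msh3 stood at 23.8 CPM in WT M3, within 22.7 to 25.6 in the other WT libraries, and at 99.1 and 99.9 CPM in Msh3-/- F4 and F3, just under 104 to 120 in the other libraries labelled Msh3-/-. Counts over Msh3 thus went up, not down, with the labelled loss of the gene, so the genotypes are given as labelled. Htt stood at 244, 244 and 245 CPM in the 3 libraries, within the range of the other libraries labelled Msh3-/- or WT.

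Ttr stood at 1093 CPM in Msh3-/- F4, 353 in WT M3 and 106 in Msh3-/- F3. In the 45 other libraries it ran from 0.641 to 9.17 CPM with a median of 2.18. The 3 libraries and the 45 did not overlap: on the scale of the rule, the member nearest the threshold had 106 CPM of its plain total, and the nearest library outside it, Q140 x Msh3-/- F4, had 9.15. Ttr alone made up 0.107% of all counts in Msh3-/- F4, 0.0356% in WT M3 and 0.0106% in Msh3-/- F3. In bulk tissue, fewer cells of a type and less RNA per cell cannot be told apart, so these levels do not say how many choroid plexus cells a sample held.

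The 2 high libraries labelled Msh3-/- stood apart from the 6 others of that label, which ran from 0.641 to 5.43 CPM. WT M3 likewise stood apart from the 6 other WT libraries, which ran from 0.963 to 3.88 CPM. No library labelled Q140, Msh3+/-, Q140 x Msh3+/- or Q140 x Msh3-/- passed the threshold, and their medians were 3.18, 1.67, 2.29 and 3.22 CPM. Among the 45, the 22 females had a median of 2.45 CPM and the 23 males 1.70, and their ranges overlapped. Msh3-/- F4 and F3 share the first part of their column name with 2 more mice, Q140 x Msh3-/- F1 at 5.37 CPM and Msh3+/- F3 at 2.18. The labels do not say what that shared name means. Wells next to those of the 3 libraries on the labelled plate held 1.12 to 6.29 CPM of Ttr, so their neighbours stayed in the range of the 45. Whether plate position, dissection or another step bears on the high values was not tested.

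**Figure D1:**
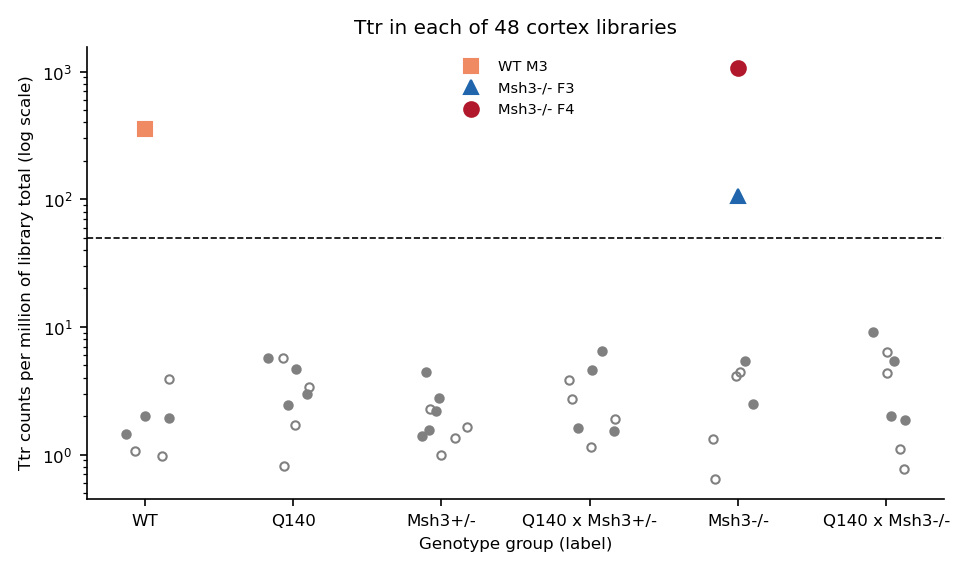
Ttr in CPM of the plain library total (log axis) for each of 48 libraries by labelled genotype, with filled grey circles for females, open circles for males and coloured symbols for the 3 high libraries. The dashed line marks 50 CPM. The 3 coloured points sit at 1074, 356 and 106, above all grey points, the highest of which is at 9.15.

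Across all genes, 17 of 20010 tested genes (0.085%) were above all, meaning that the lowest of the 3 libraries exceeded the highest of the 45. Only 1 gene (0.005%) was below all: Tmem62 stood at 26.7, 26.8 and 25.9 CPM in Msh3-/- F4, WT M3 and Msh3-/- F3, against 27.3 to 32.5 in the 45. Of the 17 genes, 14, Ttr among them, were in 5 lists of choroid plexus epithelial genes, and the others were Mfrp, Drc7 and Dsp. The high libraries were therefore marked by a short set of genes that were higher, with almost none lower. In all of the 17 genes but Prlr and Lbp, the order of the 3 libraries was that of Ttr.

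Secreted proteins gave the largest amounts. Enpp2, which encodes the lysophosphatidic acid producing enzyme autotaxin, stood at 794 CPM in Msh3-/- F4, 346 in WT M3 and 289 in Msh3-/- F3, against 195 to 249 in the 45. Enpp2 is also made by oligodendrocytes, and its level in the 45 was already high, so its ratio of means was only 2.15. F5, coagulation factor V, stood at 39.4, 8.53 and 2.90 CPM in the same order, against 0.234 to 0.956. Its ratio of means, 26.4, was among the highest of the tested genes. Sostdc1, a secreted antagonist of bone morphogenetic protein and Wnt signals, stood at 6.30, 2.31 and 0.651 CPM against 0.0388 to 0.387. Lbp, lipopolysaccharide binding protein, stood at 8.08, 2.43 and 2.65 CPM against 0.281 to 1.25. 1500015O10Rik, an older symbol of Ecrg4, stood at 10.6, 3.14 and 1.74 CPM against 0.155 to 1.32. In Lbp, Msh3-/- F3 was slightly above WT M3, unlike Ttr.

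Channels and transporters of the fluid-secreting epithelium followed. Clic6, a chloride intracellular channel protein, stood at 23.2 CPM in Msh3-/- F4, 6.59 in WT M3 and 3.28 in Msh3-/- F3, against 0.0888 to 0.936 in the 45. Kcnj13, the inward rectifier potassium channel Kir7.1 of the epithelium's fluid-facing membrane, stood at 12, 2.84 and 1.68 CPM against 0.369 to 1.45. Aqp1, the water channel of that membrane, stood at 7.19, 2.24 and 1.28 CPM against 0.122 to 0.658. In all 3 genes the lowest high library was clear of the 45, by a wide margin for Clic6 and a narrow one for Kcnj13.

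Receptors and surface proteins came next. Kl, which encodes klotho, a co-receptor for fibroblast growth factor 23, stood at 49.0, 13.5 and 6.62 CPM against 1.03 to 3.46. Prlr, the prolactin receptor, stood at 19.3 CPM in Msh3-/- F4, 3.49 in WT M3 and 3.70 in Msh3-/- F3, against 0.329 to 1.72. Folr1, the folate receptor that carries folate into cerebrospinal fluid, stood at 7.44, 2.20 and 0.630 CPM against 0.0388 to 0.579. Folr1 in Msh3-/- F3 rested on 30 counts and lay close to the highest of the 45. Mfrp, a membrane protein with a frizzled-related domain, stood at 18.1, 4.21 and 1.28 CPM against 0 to 0.323, and its ratio of means of 61.0 was second among tested genes above all to Ttr, at 178. Mfrp passed the low-count filter with the 48 libraries but not with the 45 alone. Mfrp lies beside C1qtnf5 and shares transcripts with it, so the split of reads between them is uncertain.

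The other 4 tested genes encode structural or ciliary proteins, or have a role left out here. Col9a3, a chain of collagen IX, stood at 15.2, 9.44 and 7.41 CPM against 4.21 to 6.79. Dsp, the desmosome protein desmoplakin, stood at 3.27, 1.08 and 0.714 CPM against 0.0900 to 0.584. Drc7, a part of the dynein regulatory complex of motile cilia, stood at 6.70, 1.75 and 0.924 CPM against 0.0602 to 0.641. Wdr86 stood at 2.50, 0.876 and 0.651 CPM against 0.0468 to 0.507. Of these, Col9a3 had the highest level in ordinary cortex and the smallest ratio of means, 1.87.

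**Figure D2:**
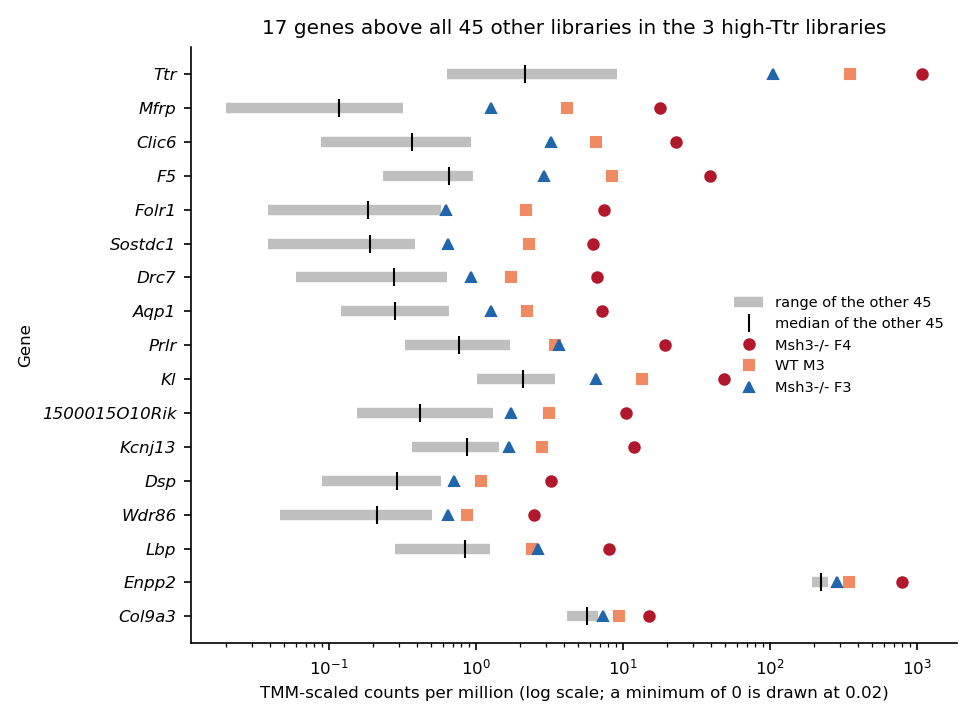
TMM-scaled CPM (log axis) of the 17 genes that were above all, with grey bars for the range of the 45 other libraries, black ticks for their median and coloured symbols for the 3 high libraries. In every row the 3 symbols lie right of the bar, from Ttr at 1093 CPM in Msh3-/- F4 down to Folr1 at 0.630 in Msh3-/- F3.

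Some of the most specific epithelial genes were too low in cortex to pass the filter on low counts. Without the filter, 30 of 35345 genes with any count were above all. Of the 13 that the filter had removed, 10 had at least 10 counts in Msh3-/- F4, and 8 of these were in the choroid plexus lists. Otx2, the homeobox factor that choroid plexus development requires, stood at 4.92 CPM in Msh3-/- F4, 1.32 in WT M3 and 0.462 in Msh3-/- F3, against 0 to 0.193. Slc4a5, a sodium bicarbonate cotransporter of the fluid-facing membrane, stood at 12.7, 3.81 and 1.60 CPM against 0.0260 to 0.301. Cldn2, a tight junction claudin that lets cations and water pass, stood at 8.57, 1.69 and 0.819 CPM against 0 to 0.243. Kcne2, a potassium channel beta subunit, stood at 6.72, 1.4 and 0.756 CPM against 0 to 0.238. Tmem72 stood at 17.8, 4.29 and 2.44 CPM against 0 to 0.250, with a ratio of means of 70.5. The keratins Krt8 and Krt18 of simple epithelia reached 0.560 and 1.47 CPM in Msh3-/- F4 and 0.147 CPM each in Msh3-/- F3, which rested on 7 counts each.

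The label of choroid plexus RNA could thus be checked against defining epithelial genes beside Ttr. Otx2, Kcnj13, Clic6, Folr1, Aqp1, Slc4a5, Kcne2, Cldn2 and Kl were all above all in the 3 libraries. Of the 64 tested genes in the 5 choroid plexus lists, 14 were above all, beside 0.085% of all tested genes. Ttr, which chose the libraries, is a list member and is included in the list counts given here. Taken 1 library at a time, Msh3-/- F4 exceeded all 45 in 40 of the 64, WT M3 in 23 and Msh3-/- F3 in 16. Over all tested genes the same held for 2.17% in Msh3-/- F4, 2.34% in WT M3 and 1.55% in Msh3-/- F3. By role, Msh3-/- F4 exceeded the 45 in 10 of 14 secreted proteins and carriers, 9 of 15 channels and transporters, 7 of 13 receptors and enzymes, 10 of 12 junction, cytoskeleton and matrix genes, and 4 of 10 transcription factors. The lists were drawn up with results on these libraries known and are not independent evidence.

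Listed genes outside the set ranged from ones with clear levels in the 45, such as Cp, to ones low there, such as Lrp2. Why they fell outside was not tested. Cp, ceruloplasmin, stood at 16.2, 13.3 and 15.1 CPM, inside the 11 to 20.7 of the 45. Slc5a5, the sodium iodide symporter, stood at 14.4, 18.5 and 19.7 CPM against 11.1 to 19.7. Igfbp2, an insulin-like growth factor binding protein, was above the 45 in Msh3-/- F4 alone, at 48 CPM, with 28.4 and 25.8 in the other two high libraries against 20.9 to 36.5. Htr2c, a serotonin receptor found in both choroid plexus and neurons, stood at 22.8 and 18.4 CPM in Msh3-/- F4 and WT M3, over the highest of the 45 at 17.3, and at 8.78 in Msh3-/- F3. Ace, angiotensin converting enzyme, stood at 50.2, 31.8 and 22.5 CPM against 14.6 to 25.8. Lrp2, megalin, was at 0.140, 0.154 and 0.105 CPM, inside the 0 to 0.285 of the 45.

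The amounts of the 17 genes can be set against Ttr by the excess over the median of the 45 libraries. For Ttr, the excess in WT M3 was 32.1% of that in Msh3-/- F4, and the excess in Msh3-/- F3 was 9.52%. For the other 16 genes, WT M3 held 14.7% to 38.9% of the excess of Msh3-/- F4, with a median of 25.3%. Msh3-/- F3 held 5.79% to 24.8%, with a median of 12.1%. The ratios were thus not the same for each gene. In WT M3, 14 of the 16 genes were lower against Msh3-/- F4 than Ttr was, the exceptions being Sostdc1 at 34.6% and Col9a3 at 38.9%. In Msh3-/- F3, 11 of the 16 were higher than Ttr was. Whether genotype, sex or tissue composition moves with these ratios was not tested.

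Summed over the 17 genes, the excess was 1877 CPM in Msh3-/- F4, 525 in WT M3 and 192 in Msh3-/- F3. These are 0.188%, 0.0525% and 0.0192% of the counts of each library. Ttr made up 58.1%, 66.8% and 54.1% of that excess. Ttr and Enpp2 together made up 88.5%, 90.2% and 88.2%. Per length, on the authors' FPKM scale, the excess in Msh3-/- F4 was 879 for Ttr, 160 for Enpp2, 11.1 for 1500015O10Rik, 8.58 for Kcnj13, 5.73 for Clic6, 5.12 for F5 and 4.94 for Kl. Ttr was thus the most abundant of these RNAs per length as well as in counts.

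In Msh3-/- F4, 54 of 20010 tested genes (0.270%) reached at least 1 CPM and 1.5 times the highest of the 45. Of these, 27, Ttr among them, were in the choroid plexus lists, and 17 were the genes above all. WT M3 exceeded all 45 in 35 of the 54, beside 2.34% of all tested genes, and Msh3-/- F3 in 18, beside 1.55%. In each, the 17 genes above all are counted by definition. Genes with a clear value in Msh3-/- F4 and WT M3 but not in Msh3-/- F3 included Trpv4, an osmosensitive cation channel, at 6.74, 2.58 and 1.51 CPM against 0.572 to 2.26. Cldn1, a tight junction claudin, stood at 3.85, 1.75 and 1.11 CPM against 0.491 to 1.24. Abca4, a lipid transporter, stood at 14.0, 9.99 and 6.62 CPM against 3.66 to 7.97. Car12, a membrane-bound carbonic anhydrase, was high in Msh3-/- F4 alone, at 19.6 CPM, with 7.10 and 4.75 in the other two high libraries against 2.53 to 9.46. Against all 47 other libraries, Msh3-/- F4 was highest by at least 1.5 times in 50 genes of at least 1 CPM, and WT M3 and Msh3-/- F3 in 0, while the 45 others gave 0 to 11.

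Promoters of the 17 genes were looked at for letters bound by choroid plexus factors. RefSeq promoters on GRCm38.p6 could be matched for 10 of the 17 genes, with 12 promoters in all, and the 250 bases before each start were searched on both strands. The motif TAATCC, bound by Otx2, was in 1 of the 12 (8.33%), beside 6.25% of 32851 promoters. The forkhead motif GTAAACA was in 1 of the 12 (8.33%), beside 3.17% of all. No match of one motif overlapped a match of the other. The 2 promoters with a match are printed below as their first 200 bases, 5′ to 3′ on the plus strand, to show where the match lies. Capitals mark the motif, which in both is read on the opposite strand. The first lies at chr9:44101520-44101719 before Mfrp, and the second at chr15:10223656-10223855 before a RefSeq start of Prlr inside that gene.
Mfrp: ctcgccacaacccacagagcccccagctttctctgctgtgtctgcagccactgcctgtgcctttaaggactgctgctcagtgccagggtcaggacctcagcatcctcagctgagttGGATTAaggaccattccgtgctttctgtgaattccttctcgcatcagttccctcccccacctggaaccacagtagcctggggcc
Prlr: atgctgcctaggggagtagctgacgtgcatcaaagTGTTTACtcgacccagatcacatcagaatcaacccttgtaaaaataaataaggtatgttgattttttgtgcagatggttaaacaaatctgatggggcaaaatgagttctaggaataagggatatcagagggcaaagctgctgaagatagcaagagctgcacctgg

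On GRCm38 with GENCODE M21, the genes above all were spread over the genome. Clic6 lies at chr16:92485736-92541243, Kl at chr5:150952607-150993817, F5 at chr1:164151838-164220277, Enpp2 at chr15:54838901-54952892 and Kcnj13 at chr1:87386363-87394729. The deposited counts are per gene, so they do not separate transcripts.

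Markers of other cells of the ventricle wall, vessels and nearby brain regions were read in the same libraries. Ependymal cells line the ventricles with motile cilia, and choroid plexus epithelium shares part of their genes. Of 18 tested genes in the ependyma and motile cilia list, 0 were above all, beside 0.085% of all tested genes. Msh3-/- F4 exceeded the 45 in 9 of them, WT M3 in 2 and Msh3-/- F3 in 1. Over all tested genes the same held for 2.17%, 2.34% and 1.55%. The ependymal list summed to 40.7 CPM in Msh3-/- F4, 33.2 in WT M3 and 30.0 in Msh3-/- F3, against 24.8 to 34.1. Dnah11, a dynein of motile cilia, stood at 1.94, 0.661 and 0.357 CPM against 0.0225 to 0.686. Ttc21a stood at 1.84, 0.984 and 0.504 CPM against 0.229 to 0.810. The ependymal markers Tmem212 and Sntn had 0 counts in all 3 libraries, and Ccdc153 stood at 0.0467, 0.0769 and 0 CPM, inside 0 to 0.565. Foxj1, the factor that switches on motile cilia genes, stood at 5.65, 3.94 and 4.26 CPM against 1.74 to 4.48.

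Stromal and endothelial genes summed to levels inside the range of the 45. The 25 genes of choroid stroma and meninges summed to 716, 694 and 626 CPM, inside the 416 to 1039 of the 45. Of these genes 0 were above all, beside 0.085% of all tested genes. The growth factor Igf2 was above the 45 in Msh3-/- F4 alone, at 119.7 CPM, with 75.1 and 49.8 in the other two high libraries against 34.5 to 101. Endothelial genes summed to 359, 384 and 338 CPM against 324 to 442, and Plvap, which marks leaky capillaries such as those of the choroid plexus, stood at 9.73, 10.6 and 8.59 CPM against 7.21 to 11.8. Mural cell genes summed to 199, 219 and 200 CPM, and in Msh3-/- F4 and F3 this was below the lowest of the 45, at 210. Genes of border macrophages summed to 17, 12.5 and 16.5 CPM against 6.16 to 26.3.

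Haemoglobin RNA, a sign of residual blood, was not in the order of Ttr. Haemoglobin genes summed to 0.280 CPM in Msh3-/- F4, where only 1 of the 45 was lower, to 16.6 CPM in WT M3, above all 45, and to 6.43 CPM in Msh3-/- F3. The 45 ran from 0.111 to 12.8 CPM. The library with the most Ttr was thus among those with the least haemoglobin RNA, and the second highest had the most.

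Neurons and glia of the cortex stood at ordinary levels. Cortical excitatory neuron genes summed within the range of the 45 in each of the 3 libraries, as did inhibitory neuron, astrocyte and oligodendrocyte genes. Microglia genes summed to 308, 282 and 309 CPM against 285 to 382, so that WT M3 was just below the lowest of the 45. Hippocampal genes summed to 693, 613 and 676 CPM against 588 to 727. Dsp, which also marks dentate granule cells, was the only 1 of 14 above all, beside 0.085% of all tested genes. Striatal genes summed to 220, 219 and 208 CPM against 197 to 267, and lists for thalamus and habenula, septum and hypothalamus, pituitary, and dividing cells and neuroblasts were inside their ranges. Pineal genes summed to 1.1, 1.49 and 1.26 CPM against 0.520 to 1.45, so WT M3 was just above the 45. The part that any of these cell types has in the result was not tested.

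**Figure D3:**
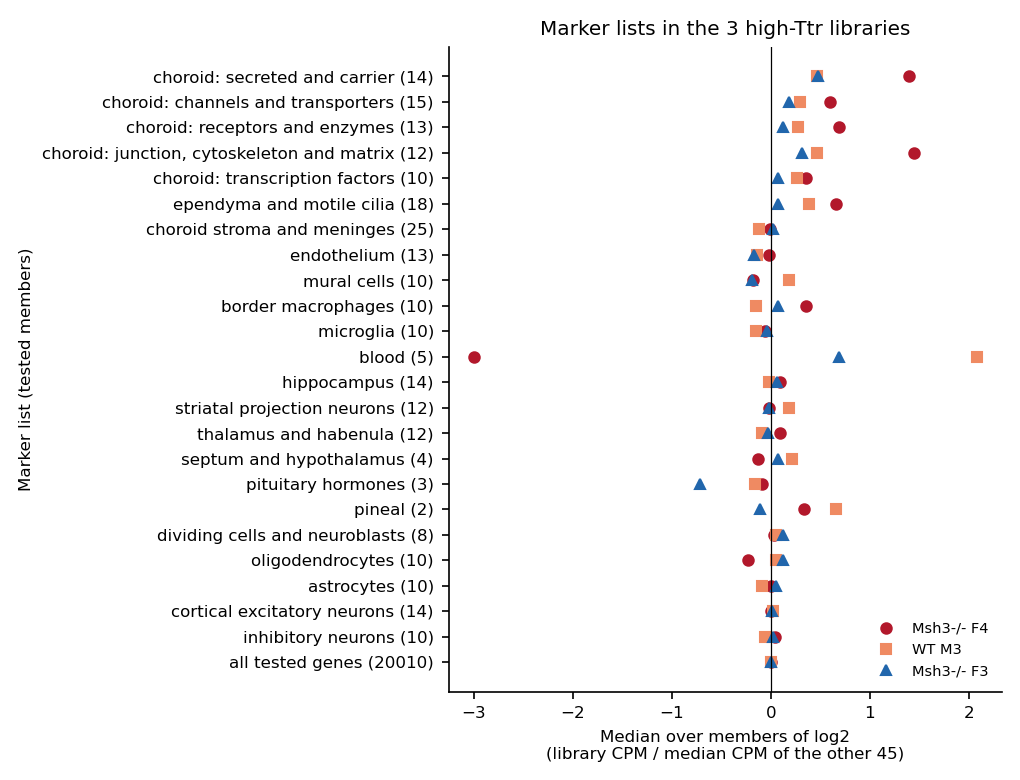
Median over the tested members of each marker list of the log2 ratio of a library's CPM to the median CPM of the 45 other libraries, for each of the 3 high libraries. The 5 choroid plexus lists lie right of 0 in all 3 libraries, most in Msh3-/- F4, while the blood list lies far left in Msh3-/- F4 at -3.00 and right in WT M3 at 2.08.

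Within the 45 other libraries, which the threshold left on one side, Ttr still varied from 0.641 to 9.17 CPM. Each gene was fitted against log2(Ttr CPM + 0.5) with genotype and sex in the model. The rule read the same Ttr counts to place these libraries on one side, but not how they vary among the 45. Among 20110 genes beside Ttr, edgeR's quasi-likelihood test called 2 at an adjusted p under 0.05 (0.00995%), and 1758 had an unadjusted p under 0.05. One of them was Clic6, which rose with Ttr with a slope of 0.59 ± 0.10 (SE) log2 units per log2 unit of Ttr and an adjusted p of 0.00402. The other was the pseudogene Tmem181c-ps, which fell, with a slope of -3.02 ± 0.51 and the same adjusted p of 0.00402. Tmem181c-ps was not called by limma with voom (adjusted p 0.392), with the plate row (0.824) or with a random block for the shared part of the column names (0.32). It stood at 10.1 CPM in Msh3-/- F4, the library with the most Ttr, against a median of 0.195 and a highest value of 12.9 in the 45. With the plate row added to the model, 0 genes were called by edgeR, 1174 had an unadjusted p under 0.05, and Clic6 had a slope of 0.58 with an adjusted p of 0.0836. In the 15 libraries with the least Ttr, at 0.641 to 1.63 CPM, Clic6 ran from 0.0888 to 0.629 CPM with a median of 0.219. In the 15 with the most, at 3.79 to 9.17 CPM, it ran from 0.306 to 0.936 with a median of 0.568, and the ranges overlapped.

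**Figure D4:**
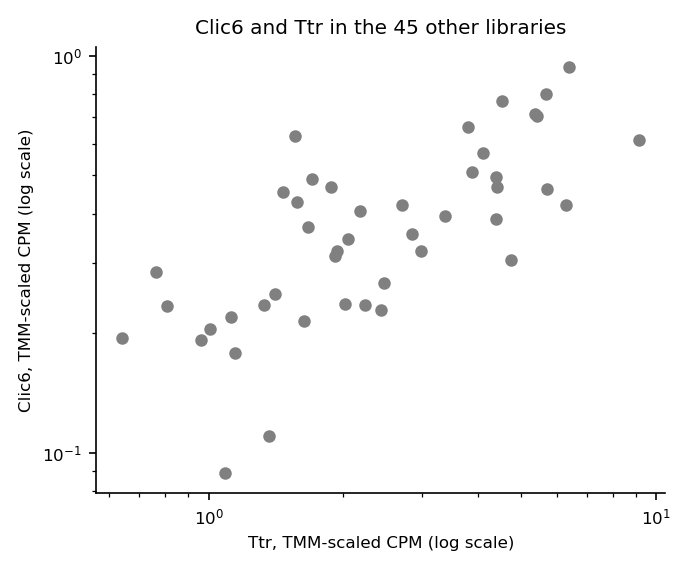
Clic6 against Ttr in the 45 libraries at or below the threshold, both in TMM-scaled CPM on log axes, 1 point per library. Points rise from 0.0888 to 0.629 CPM of Clic6 among the 15 lowest Ttr libraries to 0.306 to 0.936 among the 15 highest.

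The 17 genes above all were chosen with the values of all 48 libraries, so their slopes are given as a description. Beside Ttr, 15 of them had a slope in the 45 libraries. Mfrp had none, since it did not pass the low-count filter in the 45. Fitted by edgeR without that filter, its slope was 0.04 ± 0.15 with an adjusted p of 0.960. Of the 15, 14 had a positive slope and 1 a negative one, beside 49.6% positive over all genes. With an unadjusted p under 0.05 and a positive slope there were 6 of the 15, beside 4.46% of all genes. Only Clic6 was called. The median slope of the 15 was 0.21, beside -0.00037 over all genes. Kcnj13 had a slope of 0.31 ± 0.08 with an adjusted p of 0.292, and Kl a slope of 0.25 ± 0.07 with an adjusted p of 0.329. Enpp2 had the one negative slope, -0.04 ± 0.01, with an adjusted p of 0.438. Without the filter on low counts, 26 of 29 genes above all had a positive slope, Otx2 among them at 0.95 ± 0.31 with an adjusted p of 0.413. The share over all unfiltered genes was not computed, so this count has no background. Some of the 29 had almost no counts in the 45, such as Krt8, at 0 in 26 libraries, so the sign of their slope says little. These genes share their libraries and depth, so they are not independent of each other.

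The high libraries enter any genotype comparison with WT or Msh3-/- in it, and 4 such comparisons, which share WT or Msh3-/- samples, are given here. With all 48 libraries, Q140 x Msh3-/- against Msh3-/- gave a Ttr difference of -4.92 ± 1.23 (SE) on the log2 scale, with an adjusted p of 0.571 by edgeR's quasi-likelihood test. Without the 3 libraries the difference was 0.26 ± 0.43, adjusted p 0.877. With all 48 libraries all 17 genes were lower in Q140 x Msh3-/-, with a median of -2.01, and without the 3 libraries 9 were higher and 8 lower, with a median of 0.01. The median of all tested genes was -0.0026 and -0.0037. The test called 0 of 20010 genes (0%) both ways, with 1361 at an unadjusted p under 0.05 with the 3 libraries and 1846 without them. DESeq2 called 5 genes (0.025%) with the 48 libraries, of which 3 were Ttr at -4.96 (adjusted p 0.00245), Mfrp at -3.71 (0.0368) and F5 at -2.88 (0.0368), with Abhd1 and Gm2420 the others. Without the 3 libraries DESeq2 called 4 genes (0.020%), Herc3, Bhlhe41, Ankrd12 and Frrs1l, and gave the first 5 no adjusted p. Ttr, Mfrp and F5 then stood at 0.26, 0.26 and 0.15, while Abhd1 went from 0.76 to 0.69 and Gm2420 from 2.61 to 2.29. Limma with voom called 0, with 1524 at an unadjusted p under 0.05. The 3 libraries were picked by their Ttr value, and the 17 genes by their values in these libraries. Shifts of the 17 genes when the 3 are left out therefore follow from that choice. The p-values of Ttr, Mfrp and F5, and their DESeq2 calls, cannot be read as genotype effects.

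Q140 and Msh3+/- against WT hold 1 high library, WT M3. Q140 against WT gave a Ttr difference of -4.41 ± 1.23 with all libraries, adjusted p 0.791, and 0.83 ± 0.45 without the 3, adjusted p 0.995. Msh3+/- against WT gave -5.22 ± 1.28, adjusted p 0.234, and 0.06 ± 0.45 without them, adjusted p 0.987. In both comparisons all 17 genes were lower than in WT with 48 libraries, while 11 and 12 were higher without the 3. EdgeR called 2 genes (0.010%) in Q140 against WT and 5 (0.025%) in Msh3+/- against WT, with or without the 3 libraries, and 0 of the 17. DESeq2 called Ttr in Msh3+/- against WT, at -5.08 with an adjusted p of 0.000564. This call follows from the choice of WT M3 by its Ttr value, as do the Ttr shifts without the 3 libraries. Neither can be read as a genotype effect.

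Msh3-/- against WT has high libraries on both sides, 2 labelled Msh3-/- and 1 WT. Ttr differed by 0.67 ± 1.27 with all libraries, adjusted p 0.967, and by 0.73 ± 0.48 without the 3, adjusted p 0.999. All 17 genes were higher in Msh3-/- with 48 libraries, with a median of 0.86, and 12 of 17 without the 3, with a median of 0.16. EdgeR called 7 genes (0.035%) both ways, none of them among the 17. DESeq2 called 13 (0.065%) with all libraries and 8 (0.04%) without the 3, again none of the 17. Leaving out WT M3 alone left the high values on one side: Ttr was then called, at 5.58 ± 1.1 with an adjusted p of 0.0183, and the count rose to 8. With DESeq2 and without WT M3, Aqp1, Clic6, F5, Kl, Mfrp and Ttr were among 14 genes called, all 6 higher in Msh3-/-. WT M3 was picked by its Ttr value, so the calls of these 6 genes without it follow from that choice. They cannot be read as genotype effects.

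**Figure D5:**
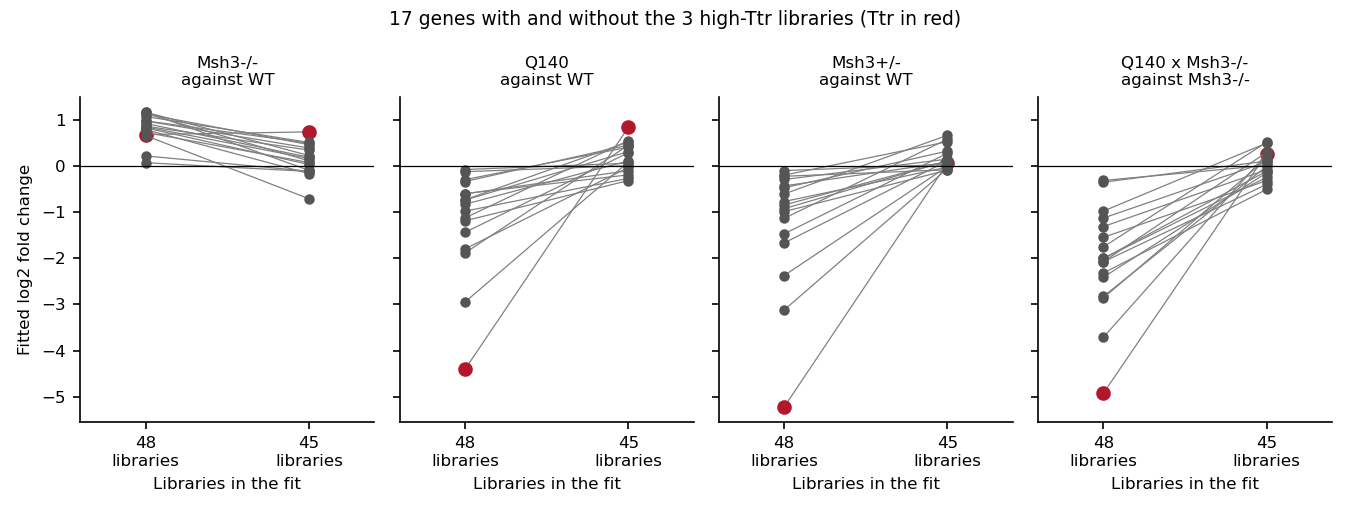
Fitted log2 fold change of the 17 genes in 4 genotype comparisons, with all 48 libraries (left of each panel) and without the 3 high libraries (right), joined by a line per gene, with Ttr in red. In every panel but the leftmost, all 17 genes lie below 0 with 48 libraries and on both sides of 0 with 45.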

How the data were processed

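The authors' deposited table holds raw read counts per gene, as whole numbers, for 48795 genes in 48 cortex libraries, 1 column per mouse, and a second deposited table holds FPKM values of the same genes. The build GRCm38 and the tools HTSeq 0.12.3, STAR 2.7.5c and SAMtools 1.10 are named in the submitters' processing notes. Strand setting, annotation release and filters are not given in the sources used here. Per the labels' protocols, libraries were made with a stranded TruSeq kit.

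The tests ran in edgeR 4.0.16 under R 4.3.3 (TMM, filterByExpr on genotype, 20010 genes kept), with limma 3.58.1 and DESeq2 1.42.0 as alternatives, and values were described in Python 3.11.15. A call needs a p under 0.05 after Benjamini-Hochberg adjustment over all tested genes. The genotype fits used 6 genotypes and sex over all libraries. For Ttr as a covariate, a pseudocount of 0.5 CPM was added, and 20110 other genes passed the filter in the 45 libraries. On data simulated for 20010 genes, the slope test recovered 36% of slopes of 0.1, 60% of 0.2, 86% of 0.4 and 96% of 0.6. It made 4 false calls among the unchanged genes. Levels and spread came from all 48 libraries, and changed genes were drawn from all tested genes. The shares therefore need not hold for genes with low counts. GENCODE M21 gave positions for 99.09% of the gene identifiers. Within groups no libraries were copies: over 169 pairs of mice of 1 group, chi-square per degree of freedom was 4.09 to 30.7. Pairs across groups were not part of this check.

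The members, the 23 marker lists and the tests were chosen with earlier results of these data known. The genes named are Ttr, Msh3, Htt, those with the highest ratio of means among genes above all with a mean of at least 1 CPM (up to 40), 8 leading genes per library, leading list members, and genes whose call changed without the 3 libraries. Krt8, Krt18, Lrp2, Slc5a5, Cp, Igfbp2, Htr2c, Ace, Trpv4, Cldn1, Abca4, Car12, Ttc21a, Foxj1 and Plvap were chosen after their values were seen or as defining markers. For 1 list member that its list's counts include, no value is reported here. P-values weigh a difference or slope against the spread between mice that the model leaves, estimated over all libraries of the fit.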

Additional observations from a re-analysis of the deposited data

Results flagged for a closer look

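Within the 8 libraries labelled Msh3-/-, Ttr in replicate F4 lay far above the next library, at 1093 CPM. Within the 7 WT libraries, Ttr in M3 did so at 353 CPM. The summed level of the 16 other genes above all showed the same 2 libraries far from their groups, Msh3-/- F4 at 1023 CPM and WT M3 at 411 CPM. These 4 values come from the libraries that the Ttr threshold chose. At the low end, Q140 x Msh3-/- M1 had the lowest summed level of those 16 genes in its group, 211 CPM. Its gap to the next library passed Dixon's critical value. Enpp2, which oligodendrocytes also make, was most of this sum: 794 CPM in Msh3-/- F4, 346 in WT M3 and at least 195 in every library below the threshold. The low sum in Q140 x Msh3-/- M1 thus says little about the rest of those genes. Chance flags about 1 in 20 groups.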

How the results depend on the processing

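The count of 17 genes above all stayed between 14 and 18 with RLE size factors, column totals, another filter and the deposited FPKM values. Column totals and FPKM values gave the same log2 ratio for each of the 17 genes, so they are not separate checks. The other filter asked for at least 1 CPM in at least 3 libraries, which the 3 high libraries alone can meet. It gave 14 genes, of which 12 were among the 17, so the set changed. The count was 30 without the low-count filter, 52 with a threshold of 200 CPM and 1 with a threshold of 5 CPM. It was 11 with each library set against its own genotype and sex, under a stricter rule than above all. All 17 genes exceeded every library outside the 3, those of the same genotype and sex included. The 11 therefore does not mean that the rest of the 17 overlapped their own group. Leaving out 1 of the 3 libraries gave 23 to 54 genes, 40 without WT M3 and 54 without Msh3-/- F3, since fewer libraries had to be high. The slope on Ttr called 2 genes, 1 with a stricter filter, 4 with DESeq2, 0 with the plate row added and 1 with a random block for the shared part of the column names, a block chosen after seeing the data. The cause was not tested. With the replicate block the counts were 2 for the slope, 7 for Msh3-/- against WT, 2 for Q140 against WT, 5 for Msh3+/- against WT and 0 for Q140 x Msh3-/- against Msh3-/-, as without it. Replicate numbers did not pair mice: mean r of deviations over 115 same-numbered pairs was -0.0312. In Msh3-/- against WT, DESeq2 called 13 genes, limma with voom 14 and DESeq2 without WT M3 14, and in Msh3+/- against WT DESeq2 called 12. In Q140 x Msh3-/- against Msh3-/-, DESeq2 called 5, and 4 without the 3 libraries; the DESeq2 fits without libraries were added after seeing the data. The Ttr difference changed sign in several fits. In Msh3-/- against WT it ran from -1.96 without Msh3-/- F4 to 5.58 without WT M3, or 5.71 with DESeq2 and without WT M3, and was -1.20 with the libraries of the 2 groups alone. Without the 3 libraries it became 0.26 in Q140 x Msh3-/- against Msh3-/-, 0.83 in Q140 against WT and 0.0565 in Msh3+/- against WT, and with log2 Ttr as a covariate, which takes the Ttr difference out by construction, 0.066, 0.10 and 0.0194. F5 and Mfrp became 0.15 and 0.26 without the 3 libraries. Of the values for single genes, 81 kept direction and call, 10 reversed (3 of them with that covariate), 6 gained a call and 4 lost one.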

Other observations

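Each high library was the highest of the 48 for some genes of at least 1 CPM: 335 in Msh3-/- F4, 374 in WT M3 and 220 in Msh3-/- F3, beside 100 to 1387 with a median of 258 in the 45 others. In WT M3, the genes of at least 1 CPM furthest above all 47 other libraries were Erich5, at 2.14 CPM against a highest other value of 1.5, and the haemoglobin gene Hba-a1, at 3.51 against 2.50. Hbb-bs, a beta globin gene, stood there at 10.7 CPM against 8.94. In Msh3-/- F3 they were Brca1, a DNA repair gene, at 2.08 CPM against 1.73, and Glra1, a glycine receptor subunit, at 1.83 against 1.52. Col1a1, a collagen I chain, stood at 11.6 CPM in Msh3-/- F3 against 10.2. None of these reached 1.5 times the next library. In Msh3-/- F4 the leading genes were Prlr, at 19.3 CPM against 3.70, and F5, at 39.4 against 8.53.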
